A study of Mus musculus with 11 samples.

Results

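The genes described here are 10 Ras exchange factors and Ras brakes, namely Rasgrp1, Rasgrp2, Rasgrp3, Rasgrp4, Sos1, Sos2, Rasa1, Rasa2, Rasa3 and Spry1, measured in mouse splenic T cells with and without cereblon. Every probe set whose platform annotation gave exactly 1 gene symbol, and that symbol was one of the 10, was taken, which gave 24 of the 45101 probe sets on the array and 10 of 18194 named genes. The genes were chosen by name, and selected on earlier results of these same arrays, in which the levels of several of them differed with activation. Their activation differences are therefore given as a description: whether a value passed the limma threshold used for all probe sets is stated, and nothing is supported by it. The larger activation differences of Rasgrp2 and Rasa3 in knockout cells were known too, so their genotype differences in activated cells are also a description. All values are log2 expression levels, so a difference of 1 is a 2-fold change. Differences are taken only between a probe set's own levels on different arrays.

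The spleens came from female mice 3 to 4 months old, and T cells were enriched from them by negative magnetic bead selection with a pan T cell kit, so CD4+ and CD8+ cells were hybridised together. The animals were C57BL6 wild type or crbn-/- on that strain, which lack cereblon, the substrate receptor of a ubiquitin ligase and the protein that thalidomide binds. Naive cells were compared with activated cells, which had spent 12 h on plate-bound anti-CD3 at 5 µg/ml with soluble anti-CD28 at 1 µg/ml. There were 3 naive and 2 activated wild-type samples, and 3 naive and 3 activated knockout samples, with 1 array each. No sample was described as cultured without the antibodies, so stimulation and time in culture cannot be told apart.

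Crbn checked the genotype labels. Its brightest probe set was lower in knockout than in wild-type cells by 1.13 log2 when naive (2.19-fold, SE 0.086, limma adjusted p = 9.5e-05) and by 0.90 when activated (1.87-fold, SE 0.097, limma adjusted p = 0.00385). The second difference did not pass without wild-type activated replicate 1 (limma adjusted p = 0.0883) or with only the compared arrays (limma adjusted p = 0.0756), and on another Crbn probe set, 1455734_at, it did not pass in the fit of all arrays (limma adjusted p = 0.0695). Crbn signal remained in the knockouts, where the brightest set read 8.97, 9.07 and 8.91 when naive and 8.70, 8.77 and 8.58 when activated. Markers of T cells averaged between 11.54 and 11.72 log2 on the naive arrays. Array medians lay between 5.84 and 5.89 and lower quartiles between 4.57 and 4.68. Within a group, arrays correlated at 0.994 or more across probe sets, and the small number of arrays limits the precision of each value.

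Ras is a small GTPase that is active while bound to GTP. Exchange factors load it with GTP, and GTPase-activating proteins (GAPs) speed up hydrolysis and return it to the inactive state. In T cells the antigen receptor activates phospholipase C gamma, and the diacylglycerol it makes recruits RasGRP exchange factors to membranes. The SOS exchange factors are brought to the receptor's adaptor complex by GRB2, and Ras-GTP in turn drives the RAF, MEK and ERK kinases. Sprouty proteins restrain this cascade and are known as genes induced by the signal they restrain.

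The promoters of the 4 members whose levels the results turn on are shown because these genes had the largest activation differences of the 10. Each spans 250 bases before to 50 bases after a start site in RefSeq, build GRCm38.p6, read 5′ to 3′ on the gene's own strand. The intervals are chr2:117342828-117343127 on the minus strand for Rasgrp1, chr19:6399625-6399924 on the plus strand for the first of the entries of Rasgrp2, chr8:13677538-13677837 on the minus strand for Rasa3 and chr3:37639697-37639996 on the plus strand for Spry1. Capitals mark matches on either strand to the motif of KLF and SP factors, CCNCNCCC.
Rasgrp1: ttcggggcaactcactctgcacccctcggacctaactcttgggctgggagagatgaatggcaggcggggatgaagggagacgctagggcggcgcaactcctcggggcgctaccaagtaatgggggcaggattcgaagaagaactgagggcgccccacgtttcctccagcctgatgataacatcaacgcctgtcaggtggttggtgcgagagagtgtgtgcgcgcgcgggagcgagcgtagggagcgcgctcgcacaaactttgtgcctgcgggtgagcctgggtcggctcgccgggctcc
Rasgrp2: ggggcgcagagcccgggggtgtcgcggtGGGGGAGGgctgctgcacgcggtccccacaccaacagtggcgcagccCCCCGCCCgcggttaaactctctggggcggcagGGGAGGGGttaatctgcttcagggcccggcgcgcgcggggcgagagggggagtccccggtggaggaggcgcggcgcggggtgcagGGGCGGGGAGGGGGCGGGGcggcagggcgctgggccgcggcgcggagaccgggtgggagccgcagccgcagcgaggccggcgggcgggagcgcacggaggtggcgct
Rasa3: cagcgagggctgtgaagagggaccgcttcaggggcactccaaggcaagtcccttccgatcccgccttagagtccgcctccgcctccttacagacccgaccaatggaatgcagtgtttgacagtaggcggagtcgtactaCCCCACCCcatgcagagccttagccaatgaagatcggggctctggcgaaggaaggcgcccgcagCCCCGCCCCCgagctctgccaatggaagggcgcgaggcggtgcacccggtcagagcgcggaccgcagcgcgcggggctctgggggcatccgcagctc
Spry1: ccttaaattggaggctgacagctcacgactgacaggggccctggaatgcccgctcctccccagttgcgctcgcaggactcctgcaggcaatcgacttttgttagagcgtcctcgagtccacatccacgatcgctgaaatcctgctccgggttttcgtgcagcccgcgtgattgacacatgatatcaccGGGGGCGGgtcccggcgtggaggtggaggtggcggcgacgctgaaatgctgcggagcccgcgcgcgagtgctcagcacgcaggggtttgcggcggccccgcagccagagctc

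The first Rasgrp2 promoter held 7 matches, some overlapping each other, the Rasa3 promoter 3, the Spry1 promoter 1 and the Rasgrp1 promoter 0. The second Rasgrp2 promoter entry, not printed, held 1. The motifs were chosen after expression values had been seen. Of 10 members 9 had a promoter entry, 11 promoters in all, and 8 of these 11 (72.7%) held the KLF and SP motif, against 49.5% of all 32851 promoters of that length. The median GC content was 66.7% over the 11 and 52.7% over all. The 4 printed promoters held 0 matches on either strand to 7 other motifs. These were FOXO (GTAAACA, in 3.65% of all promoters), EGR (GCGNGGGCG, 5.55%), AP-1 (TGANTCA, 7.81%), ETS (CCGGAAG, 8.86%), NFAT (GGAAAA, 23.4%), CRE (TGACGTCA, 1.79%) and the E-box (CACGTG, 7.15%). Over all 11 member promoters NFAT was matched in 4 (36.4%), ETS in 2 (18.2%), and FOXO and EGR in 1 each (9.09%). The AP-1, CRE and E-box motifs were matched in 0 of the 11. The second Rasgrp2 entry held 1 of the ETS matches. A match is a run of letters only and was not tested as a binding site.

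Among the exchange factors, Rasgrp2 had by far the largest difference between naive and activated cells. Rasgrp2, also called CalDAG-GEFI, acts mainly on Rap1, the relative of Ras that controls integrins. Its brightest probe set read 10.56, 10.76 and 10.90 on the wild-type naive arrays and 6.99 and 6.96 on the wild-type activated arrays. In knockout cells it read 10.77, 10.81 and 10.59 when naive and 5.84, 6.62 and 6.35 when activated. Every naive array lay above every activated array by more than 3 log2. The group means were 10.74 ± 0.17 (SD, n = 3), 10.72 ± 0.12 (SD, n = 3), 6.97 ± 0.02 (SD, n = 2) and 6.27 ± 0.40 (SD, n = 3) for naive wild type, naive knockout, activated wild type and activated knockout. Activated cells were lower by 3.77 log2 (SE 0.17, 13.6-fold) in wild type and by 4.46 (SE 0.16, 21.9-fold) in the knockout. Ordered by difference, this was the 7th largest fall of 18194 genes in wild type and the 2nd largest in the knockout. In bulk samples such as these, fewer cells of a type and less RNA per cell cannot be told apart.

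The other Rasgrp2 probe sets had the same direction in both genotypes. On 1438933_x_at, whose suffix marks probes that may hybridise to other transcripts, the activation difference was -3.60 log2 (12.1-fold lower) in wild type and -4.24 (19.0-fold lower) in the knockout. On 1438932_at it was lower by 3.14 in wild type and by 4.19 in the knockout, but the wild-type activated arrays themselves differed, at 7.39 and 5.97. On 1442264_at, the dimmest of the 4, it was lower by 1.29 and 1.57.

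Rasgrp1, the diacylglycerol-dependent exchange factor of the T cell receptor response, was also lower in activated cells, by less. Its brightest probe set read 10.95, 11.17 and 11.23 in wild-type naive cells and 10.48 and 10.20 in wild-type activated cells. In knockout cells it read 11.18, 11.37 and 11.15 when naive and 9.79, 10.23 and 9.99 when activated. Naive and activated arrays did not overlap in either genotype. The difference was -0.78 log2 (SE 0.13, 1.72-fold lower) in wild type and -1.23 (SE 0.12, 2.35-fold lower) in the knockout. A second probe set, 1431749_a_at, was lower by 0.70 and 0.80. The dimmer sets 1421176_at and 1450143_at were lower by 0.25 and 0.39 in wild type and by 0.04 and 0.30 in the knockout, and did not pass. Averaging the 4 probe sets gave smaller differences of -0.53 and -0.59.

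Rasgrp3, the family member best known in B cells, and Rasgrp4, known in mast cells and other myeloid cells, had no activation difference that passed in the fit of all arrays. The brighter Rasgrp3 probe set ranged from 5.02 to 5.38 over all 11 arrays, and the dimmer one from 4.14 to 5.01, around the arrays' lower quartile. The single Rasgrp4 probe set ranged from 5.77 to 6.05, around the arrays' medians. The activation differences of the brighter Rasgrp3 set were -0.14 log2 in wild type and -0.01 in the knockout, and those of Rasgrp4 0.01 and -0.19. Naive and activated arrays overlapped for Rasgrp3 in both genotypes and for Rasgrp4 in wild type. In knockout cells the Rasgrp4 arrays did not overlap. That difference did not pass (limma adjusted p = 0.0529), but passed as lower under 5 of 20 alternatives.

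Sos1 and Sos2, the receptor-linked exchange factors, differed little with activation. The brightest Sos1 probe set read 8.85, 8.73 and 8.69 in wild-type naive and 8.32 and 8.42 in wild-type activated cells, without overlap. In knockout cells it read 8.70, 8.76 and 8.65 when naive and 8.32, 8.56 and 8.46 when activated. It was lower in activated cells by 0.39 log2 (SE 0.09, 1.31-fold) in wild type and by 0.25 (SE 0.08, 1.19-fold) in the knockout. The knockout value did not pass after centring each array on its median (-0.23), with the mean of the gene's probe sets (-0.12, and -0.24 in wild type, which passed), or without knockout naive replicate 1 (-0.25), knockout naive replicate 2 (-0.23) or knockout activated replicate 1 (-0.19). On 1421884_at Sos1 was lower by 0.70 in wild type and by 0.21 in the knockout, the latter not passing, while the other 3 Sos1 probe sets stayed between 3.66 and 5.00. Sos2 ranged only from 8.31 to 8.56 over all 11 arrays, and its activation differences were -0.14 and 0.06, not passing.

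**Figure D1:**
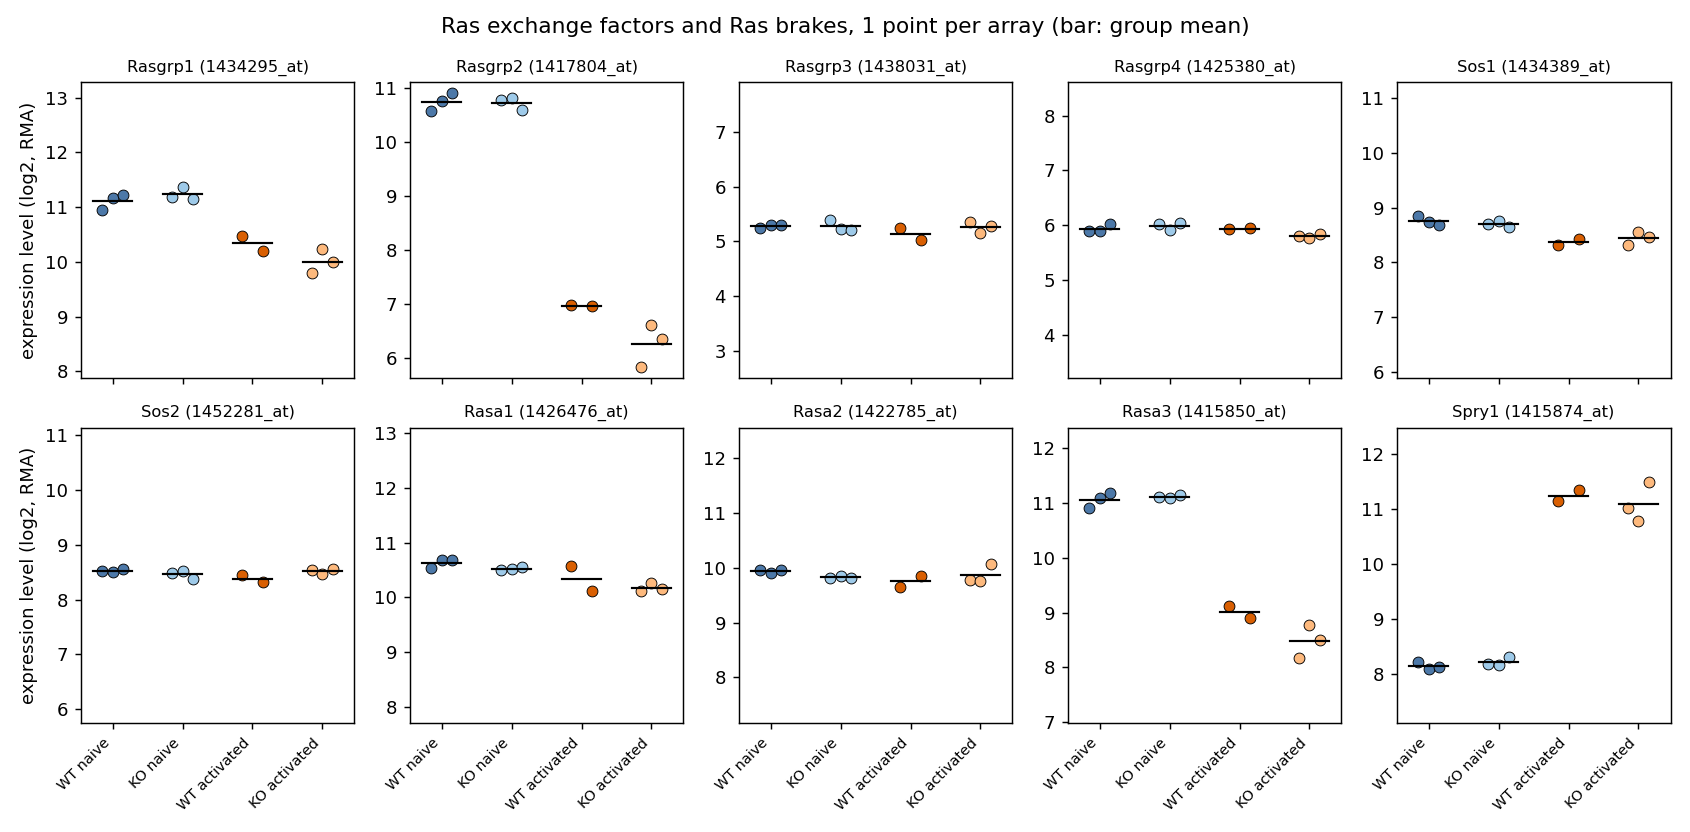
Log2 level of the brightest probe set of each of the 10 genes on each of the 11 arrays, grouped by activation state and genotype; points are arrays, bars are group means, and every panel spans nearly the same number of log2 units, slightly more for Rasgrp2. Rasgrp2 and Rasa3 drop from naive to activated in both genotypes, Spry1 rises from about 8 to about 11, and Sos2 and Rasa2 stay within a narrow band.

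Of the brakes, Rasa3 was lower and Spry1 higher in activated cells. Rasa3 is a GAP of the GAP1 family that acts on Ras and on Rap1. Its single probe set read 10.91, 11.10 and 11.18 in wild-type naive cells and 9.12 and 8.91 in wild-type activated cells. In knockout cells it read 11.11, 11.10 and 11.15 when naive and 8.18, 8.77 and 8.49 when activated. All 6 naive arrays lay above all 5 activated arrays. Activated cells were lower by 2.05 log2 (SE 0.14, 4.15-fold) in wild type and by 2.64 (SE 0.13, 6.23-fold) in the knockout.

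Spry1, which encodes a Sprouty protein, had the opposite direction. Its single probe set read 8.20, 8.08 and 8.12 in wild-type naive cells and 11.15 and 11.35 in wild-type activated cells. In knockout cells it read 8.18, 8.16 and 8.29 when naive and 11.02, 10.78 and 11.50 when activated. Each activated array lay more than 2 log2 above each naive array. Activated cells were higher by 3.12 log2 (SE 0.16, 8.67-fold) in wild type and by 2.89 (SE 0.14, 7.42-fold) in the knockout, the 21st and the 39th largest rise of 18194 genes. Its relatives Spry2 (-0.19 and -0.27 in wild type and knockout), Spry3 (0.03 and -0.01) and Spry4 (0.11 and 0.05), named after their values were seen, did not pass in either genotype.

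Rasa1, the GAP that binds phosphorylated tyrosines through SH2 domains, gave values that depended on the probe set. On its brightest probe set the wild-type naive arrays read 10.54, 10.68 and 10.68 and the wild-type activated arrays 10.57 and 10.12, which overlap. In knockout cells this set read 10.49, 10.52 and 10.56 when naive and 10.13, 10.26 and 10.16 when activated, without overlap. Its activation difference was -0.29 log2 (SE 0.11) in wild type, not passing, and -0.34 (SE 0.10) in the knockout. The wild-type difference was -0.51 without wild-type activated replicate 1 and then passed, as it did under 4 other alternatives. The second set, 1426477_at, was lower by 0.07 in wild type, not passing, and by 0.27 in the knockout. The dimmest set, 1426478_at, had the opposite sign, higher by 0.34 and 0.31, neither passing. It passed as higher under 4 alternatives in wild type and 3 in the knockout, repeated quantile normalization among both (0.43 and 0.35). The mean of the 3 sets differed by -0.0039 in wild type and by -0.10 in the knockout, and neither passed. Without knockout activated replicate 1 neither knockout value passed (-0.32 and -0.22), and without knockout naive replicate 3 the second set did not (-0.21).

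Rasa2, a GAP of the same family as Rasa3, ranged from 9.66 to 10.06 on its brightest probe set. Its activation differences there were -0.19 log2 (SE 0.10) in wild type and 0.04 (SE 0.09) in the knockout, and on 1455181_at -0.10 and 0.10. None of these 4 values passed.

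Counted over the 24 probe sets, 1 was higher, 9 were lower and 14 did not pass in wild-type activation, at a limma adjusted p under 0.05 over all 45101 probe sets. In knockout activation 1 was higher, 10 were lower and 13 did not pass. Over all probe sets 16.6% were called higher and 17.2% lower in wild type, and 18.8% and 18.7% in the knockout. With each gene taken at its brightest probe set, 1 of 10 was higher and 4 were lower in wild type (Rasgrp1, Rasgrp2, Sos1, Rasa3), and 1 was higher and 5 were lower in the knockout, where Rasa1 was added. The shares over all 18194 genes were 19.2% higher and 20.4% lower in wild type and 20.3% and 21.9% in the knockout. Since the genes were chosen with these differences known, nothing is read from the counts. The median difference over the 10 genes was -0.24 log2 in wild type and -0.22 in the knockout, beside 0.06 and -0.03 over all genes. Of the 14 probe sets that were not a gene's brightest, 12 had the sign of the brightest in each genotype and 2 had the opposite sign, 0 of which passed.

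**Figure D2:**
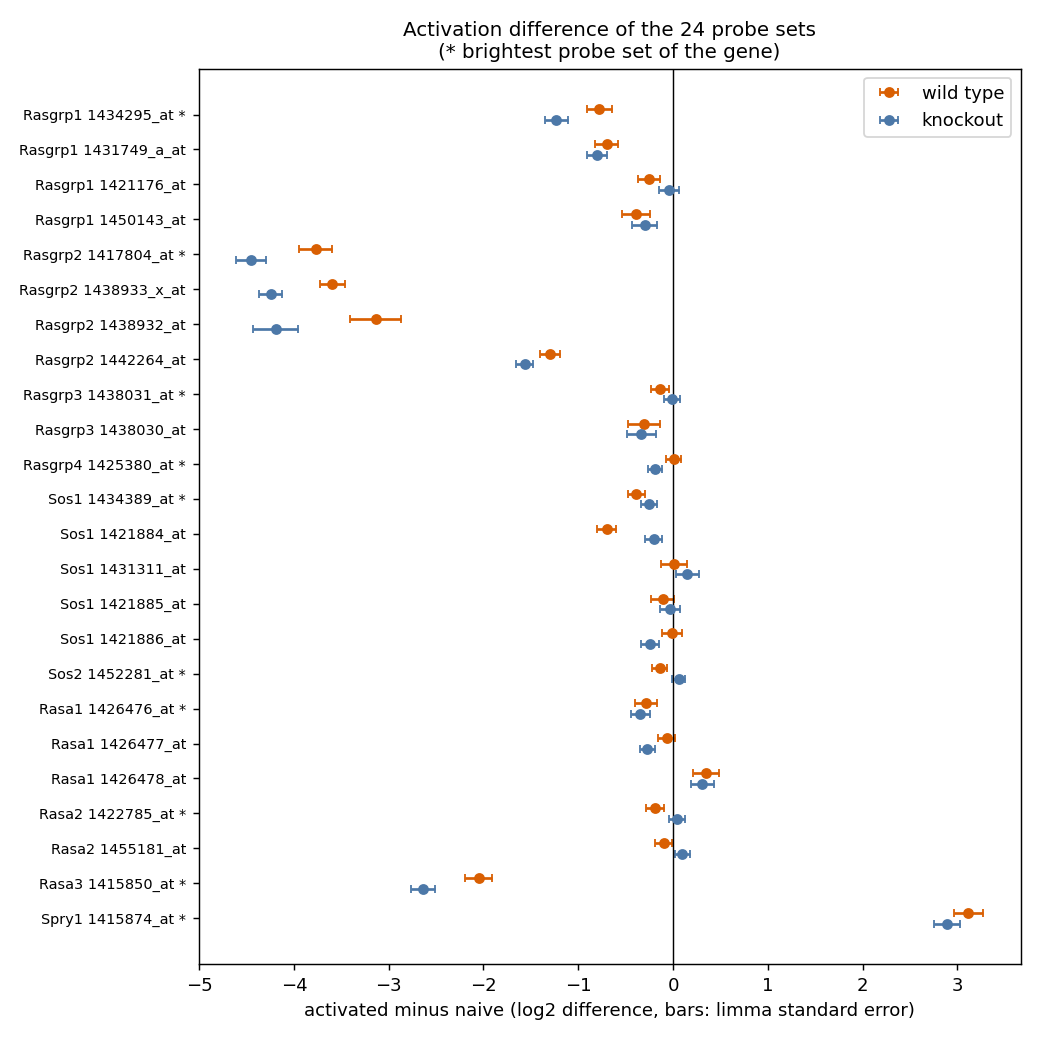
Activated minus naive difference in log2 for each of the 24 probe sets, in wild-type and in knockout cells, with bars of 1 limma standard error to each side. The 3 brighter Rasgrp2 probe sets lie furthest to the left, followed by Rasa3, Spry1 lies near 3 on the right, and the sets of Rasgrp3, Rasgrp4, Sos1, Sos2, Rasa1 and Rasa2 lie within 1 log2 of 0.

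Loss of cereblon left no member past the threshold in naive cells. The differences of the 24 probe sets between knockout and wild type ran from -0.30 to 0.16 log2, and 0 of 24 passed in limma, where 1 had an unadjusted p under 0.05 (lowest adjusted p = 0.176). Of all probe sets 0.157% were called, and 14.2% had an unadjusted p under 0.05. For Rasgrp2 the difference was -0.02 log2 (95% interval -0.36 to 0.32), for Rasa3 0.05 (-0.22 to 0.33), for Spry1 0.07 (-0.23 to 0.37) and for Rasgrp1 0.11 (-0.14 to 0.37). The lowest p belonged to Sos1 on 1421884_at, where naive wild-type arrays read 6.88, 6.79 and 6.84 and naive knockout arrays 6.51, 6.48 and 6.62. Those arrays did not overlap, and the difference of -0.30 (95% interval -0.49 to -0.11) was not seen on the brightest Sos1 set, where it was -0.05 (-0.23 to 0.12). The arrays of the genotypes were also apart for both Rasa2 probe sets, which differed by -0.12 and -0.11, and overlapped for the other 21 probe sets. Of all 45101 probe sets 19.2% had naive arrays that did not overlap between genotypes.

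In activated cells the point estimates of Rasgrp2 and Rasa3 were lower without cereblon, and none passed over all probe sets. The brightest Rasgrp2 set averaged 6.97 in wild-type and 6.27 in knockout activated cells, a difference of -0.71 log2 (95% interval -1.08 to -0.33, 1.63-fold lower, limma adjusted p = 0.217). On each of the 4 Rasgrp2 probe sets all 3 knockout arrays lay below both wild-type arrays. The other sets differed by -0.65 (1438933_x_at, limma adjusted p = 0.139), -0.96 (1438932_at, limma adjusted p = 0.296) and -0.21 (1442264_at, limma adjusted p = 0.65). Probe sets of 1 gene are read from the same RNA and are not replicates.

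The result on 1438932_at turned on a single array. Without wild-type activated replicate 2 its difference was -1.67 log2 and passed (limma adjusted p = 0.000176), with the remaining wild-type activated array assumed to vary like the other groups. Without wild-type activated replicate 1 it was -0.25 (limma adjusted p = 0.58). The brightest set ranged from -0.88 to -0.49 over its 20 alternatives and passed in none.

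Rasa3 was lower in knockout than in wild-type activated cells by 0.53 log2 (95% interval -0.84 to -0.23, 1.45-fold, limma adjusted p = 0.247), and the arrays did not overlap. Rasgrp1 was lower by 0.34 (95% interval -0.63 to -0.05, limma adjusted p = 0.523) with 10.23 in 1 knockout array above 10.20 in 1 wild-type array. On the second Rasgrp1 set, 1431749_a_at, the difference was -0.01 (95% interval -0.27 to 0.25). Spry1 differed by -0.15 (95% interval -0.49 to 0.18, limma adjusted p = 0.864) with overlapping arrays. Knockout activated replicate 1 had the lowest value of all arrays for Rasgrp1, Rasgrp2 and Rasa3, and among activated arrays it also had the highest mean of B cell markers, 7.64 log2 against 6.80 to 7.29 on the others; the part of those markers in the result was not tested. The genotypes' activated arrays did not overlap on 8 of 24 probe sets, which were the 4 of Rasgrp2, the single ones of Rasa3 and Rasgrp4 (-0.13) and 1 of Rasa1 (1426478_at, -0.14), all lower in the knockout, and that of Sos2, which was higher (0.14). The same held for 21.5% of all 45101 probe sets. Over the 24 probe sets 0 passed in limma and 5 had an unadjusted p under 0.05, where 0.071% of all probe sets passed and 8.22% had an unadjusted p under 0.05. The larger falls of Rasgrp2 and Rasa3 in knockout cells were known when the genes were chosen, so nothing is read from these counts.

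The interaction asks whether the activation difference itself differed between genotypes. On the brightest sets it was -0.69 log2 for Rasgrp2 (95% interval -1.19 to -0.18, limma adjusted p = 0.264), -0.59 for Rasa3 (-0.99 to -0.18, limma adjusted p = 0.252), -0.45 for Rasgrp1 (-0.84 to -0.06, limma adjusted p = 0.306) and -0.22 for Spry1 (-0.68 to 0.23, limma adjusted p = 0.643). The Rasgrp1 value was not seen on its other sets, at -0.10 (1431749_a_at), 0.21 (1421176_at) and 0.09 (1450143_at). The mean of the Rasgrp1 sets gave -0.06. The larger activation differences of Rasgrp2 and Rasa3 in knockout cells were known when the genes were chosen. Nothing is therefore read from the member counts in activated cells, on the mean of both states or in the interaction. The lowest p was that of Sos1 on 1421884_at, at 0.50 log2 (95% interval 0.21 to 0.78, limma adjusted p = 0.205). On the brightest Sos1 set the interaction was 0.13 (95% interval -0.13 to 0.39). In limma 0 of 24 probe sets passed and 6 had an unadjusted p under 0.05; of all 45101 probe sets 0% passed and 14.0% had an unadjusted p under 0.05. On the mean of both states 0 of 24 passed in limma and 4 had an unadjusted p under 0.05 (lowest adjusted p = 0.292), with 0.217% of all probe sets called. Over the 10 brightest probe sets 0 passed in limma in each genotype comparison and in the interaction, with 0, 3, 2 and 3 at an unadjusted p under 0.05 in naive cells, in activated cells, on the mean of both states and in the interaction, beside 14.1%, 6.62%, 6.93% and 13.5% of the 18194 genes. The shares of the 18194 genes called were 0.148% in naive cells, 0.0605% in activated cells, 0.143% on the mean of both states and 0% for the interaction.

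**Figure D3:**
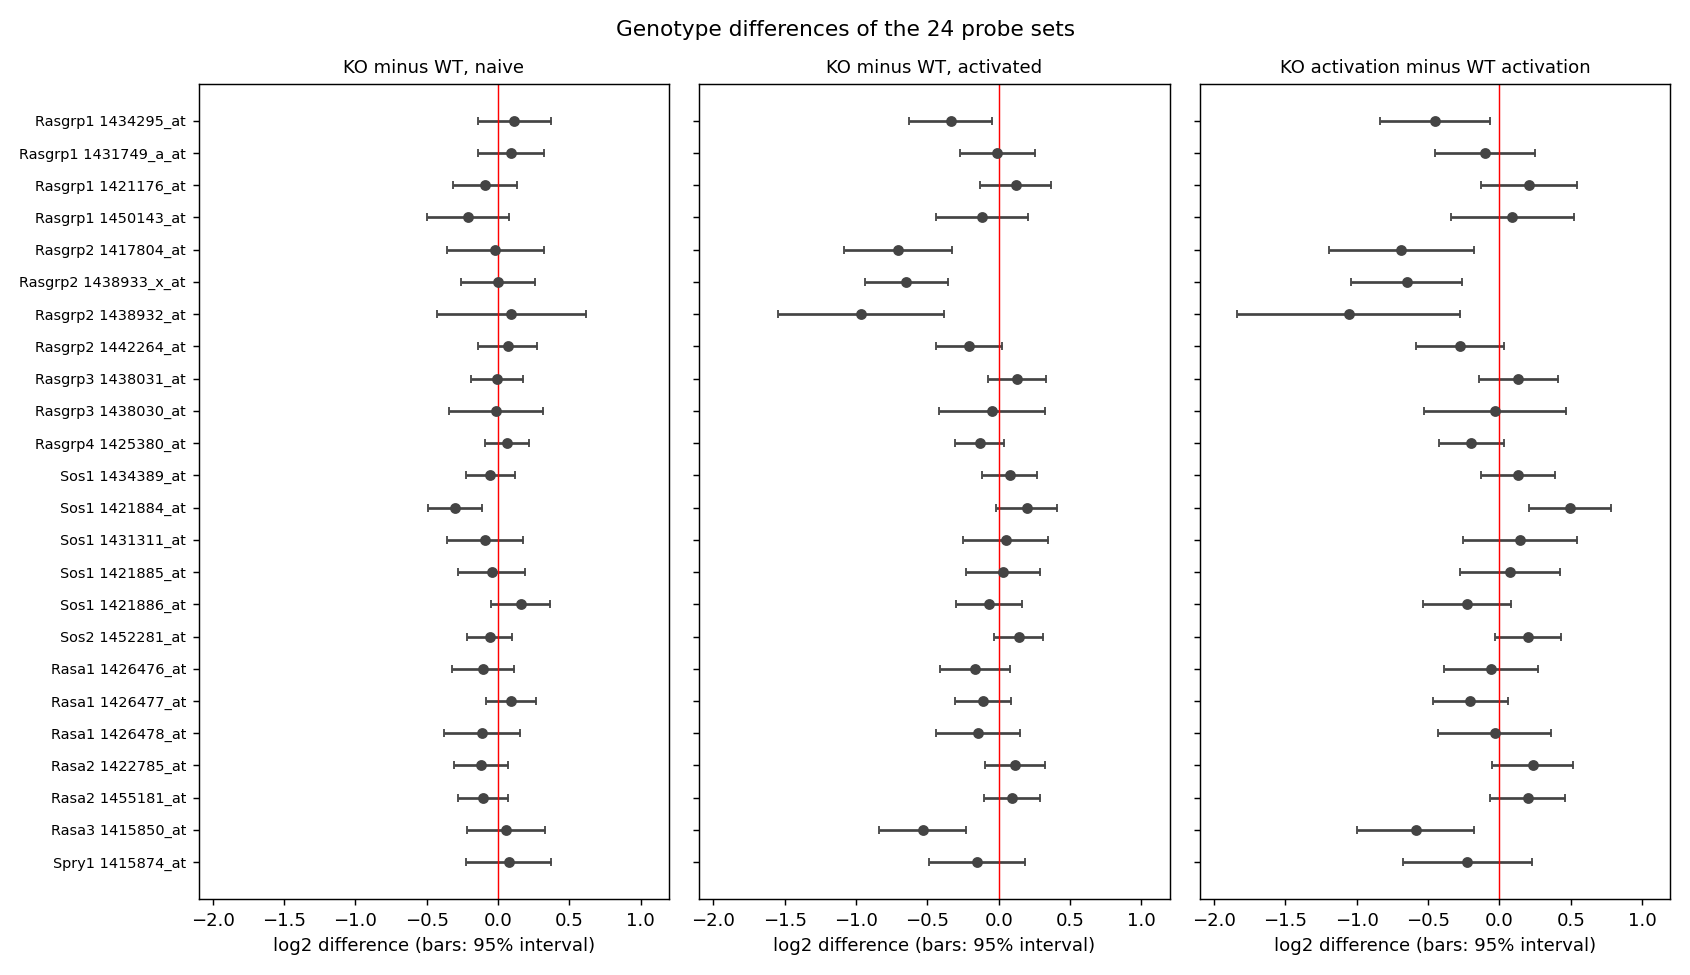
Knockout minus wild-type difference in log2 for each of the 24 probe sets in naive cells (left) and in activated cells (middle), and the interaction (right), each with its 95% limma interval. In naive cells every interval but that of Sos1 on 1421884_at crosses 0; in activated cells and in the interaction those of the brightest Rasgrp1 set, 3 Rasgrp2 sets and Rasa3 lie below 0 before adjustment over all probe sets.

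Cell types that could accompany splenic T cells were followed by their markers, since platelets, B cells and mast cells are known to hold some of the members. T cell markers averaged 11.54 to 11.71 log2 on wild-type and 11.67 to 11.72 on knockout arrays when naive, and 10.72 to 10.88 and 10.68 to 10.81 when activated. Of the 9 T cell markers 8 were lower in activated cells of each genotype and Cd5 was higher in wild type (0.27) and did not pass in the knockout (0.04), a difference that did not pass itself (interaction -0.23, limma adjusted p = 0.432). B cell markers averaged 7.62 to 7.95, 7.86 to 8.67, 6.80 to 7.23 and 7.14 to 7.64 in the same order, with 4 of 7 lower in each genotype. Platelet and megakaryocyte markers averaged 6.86 to 6.88, 6.76 to 6.89, 6.65 to 6.67 and 6.47 to 6.57, with 1 of 6 lower in wild type and 2 of 6 in the knockout. Itgb3, an integrin subunit, was lower in both genotypes, and Ppbp was below the lower quartile on all 11 arrays. The median activation difference of the 6 was -0.04 log2 in wild type and 0.06 in the knockout, while the list mean was lower on every activated array than on every naive array.

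Erythroid markers varied between naive arrays, from 7.03 to 8.53 in wild-type and 6.13 to 7.41 in knockout cells, and lay between 5.75 and 6.50 on the activated arrays. Of 7 erythroid markers 3 were lower in wild-type and 1 in knockout activated cells. Mast cell and basophil markers averaged 5.57 to 5.95 on naive and 5.38 to 5.49 on activated arrays, with Fcer1a and Ms4a2 below the lower quartile on all arrays. Macrophage and monocyte markers averaged 6.11 to 6.64 on naive and 5.63 to 5.85 on activated arrays, neutrophil markers 5.79 to 7.24 and 5.36 to 5.86, NK cell markers 9.12 to 9.89 and 8.83 to 9.18, and dendritic cell markers 6.16 to 6.37 and 6.43 to 6.61. The higher dendritic mean did not hold for most of its markers. Of 5 dendritic cell markers 1 was higher and 2 were lower in each genotype. Their median activation difference was -0.27 log2 in wild type and -0.22 in the knockout. In limma 0 of the 61 markers passed in a genotype comparison or the interaction. An unadjusted p under 0.05 was met by 16 in naive cells, 7 in activated cells, 15 on the mean of both states and 5 in the interaction. The shares of the 18194 genes at that p were 14.1%, 6.62%, 6.93% and 13.5% in the same order. The median difference of knockout minus wild type was 0.44 log2 in naive and 0.40 in activated cells for B cell markers. For erythroid markers it was -1.59 and -0.21. The part of these lists in the values of Rasgrp2 and Rasa3 was not tested.

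The other genes of the pathway were followed in 5 lists that named 53 genes, of which 46 had a probe set with a single symbol. In limma 24 of the 46 passed in wild-type activation, 3 higher and 21 lower, and 28 in knockout activation, 6 higher and 22 lower, at adjusted p under 0.05 over all probe sets. Over all 18194 genes 19.2% were higher and 20.4% lower in wild type, and 20.3% and 21.9% in the knockout. The lists were chosen with earlier results of these data known, so nothing is read from these counts. The list of diacylglycerol supply, removal and adaptors also holds Grb2 and Shc1, adaptors of the SOS branch. Of its 11 genes 10 fell and 0 rose in each genotype, with a median difference of -0.71 log2 in wild type and -0.81 in the knockout. Dgka, the kinase that removes diacylglycerol, fell from between 12.44 and 12.63 on wild-type naive arrays to 10.80 and 10.40, a difference of -1.97 (SE 0.14). In the knockout it fell by 2.59 (SE 0.12). Plcg1, the phospholipase that makes diacylglycerol, fell by 1.00 and 1.39, Prkcq, a diacylglycerol-dependent kinase, by 1.05 and 1.22, and the adaptor Grap2 by 0.94 and 1.25.

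Among 9 other exchange factors, 4 fell in each genotype and Rgl1 rose in the knockout. Rapgef2, an exchange factor for Rap1, fell by 1.68 log2 in wild type and 1.52 in the knockout, Rgl2 by 1.29 and 1.36, Rasgrf2 by 1.01 and 0.93, and Rapgef6 by 0.60 and 0.86. Among 15 other GAPs and brakes, 2 rose in each genotype, while 4 fell in wild type and 5 in the knockout. Spred1, a Sprouty-related inhibitor of the path from Ras to RAF, rose by 1.28 (SE 0.16) in wild type and by 1.88 (SE 0.14) in the knockout, and its relative Spred2 fell by 0.67 and 0.51. Rasal3, a GAP of blood cells, fell by 1.70 and 1.88, and the adaptor Dok2, which recruits Rasa1, fell by 0.94 and 1.10.

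The GTPases and the kinases downstream of them moved less. Of 6 Ras and Rap GTPases Rras2 rose by 0.44 log2 in wild type and 0.52 in the knockout, Rras fell by 0.53 and 0.52, and Rap1b fell by 0.30 and 0.24. Of 5 genes of the RAF, MEK and ERK cascade Araf fell by 0.49 and 0.47 in wild type and knockout, while Map2k2 rose by 0.32 and Ksr1 by 0.30 in the knockout. In the genotype comparisons and the interaction 0 of 46 genes passed in limma, with 4, 3, 5 and 4 at an unadjusted p under 0.05 in naive cells, in activated cells, on the mean of both and in the interaction. The shares of the 18194 genes at that p were 14.1%, 6.62%, 6.93% and 13.5% in the same order. Spred1 was lower in knockout naive cells, at 6.28, 6.08 and 5.89 against 6.95, 6.67 and 6.61, without overlap. Its difference of -0.66 log2 (SE 0.14) had a limma adjusted p = 0.0987. Dgka differed by -0.58 (SE 0.14) between knockout and wild-type activated cells with a limma adjusted p = 0.206, and by -0.63 (SE 0.19) in the interaction with a limma adjusted p = 0.227.

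**Figure D4:**
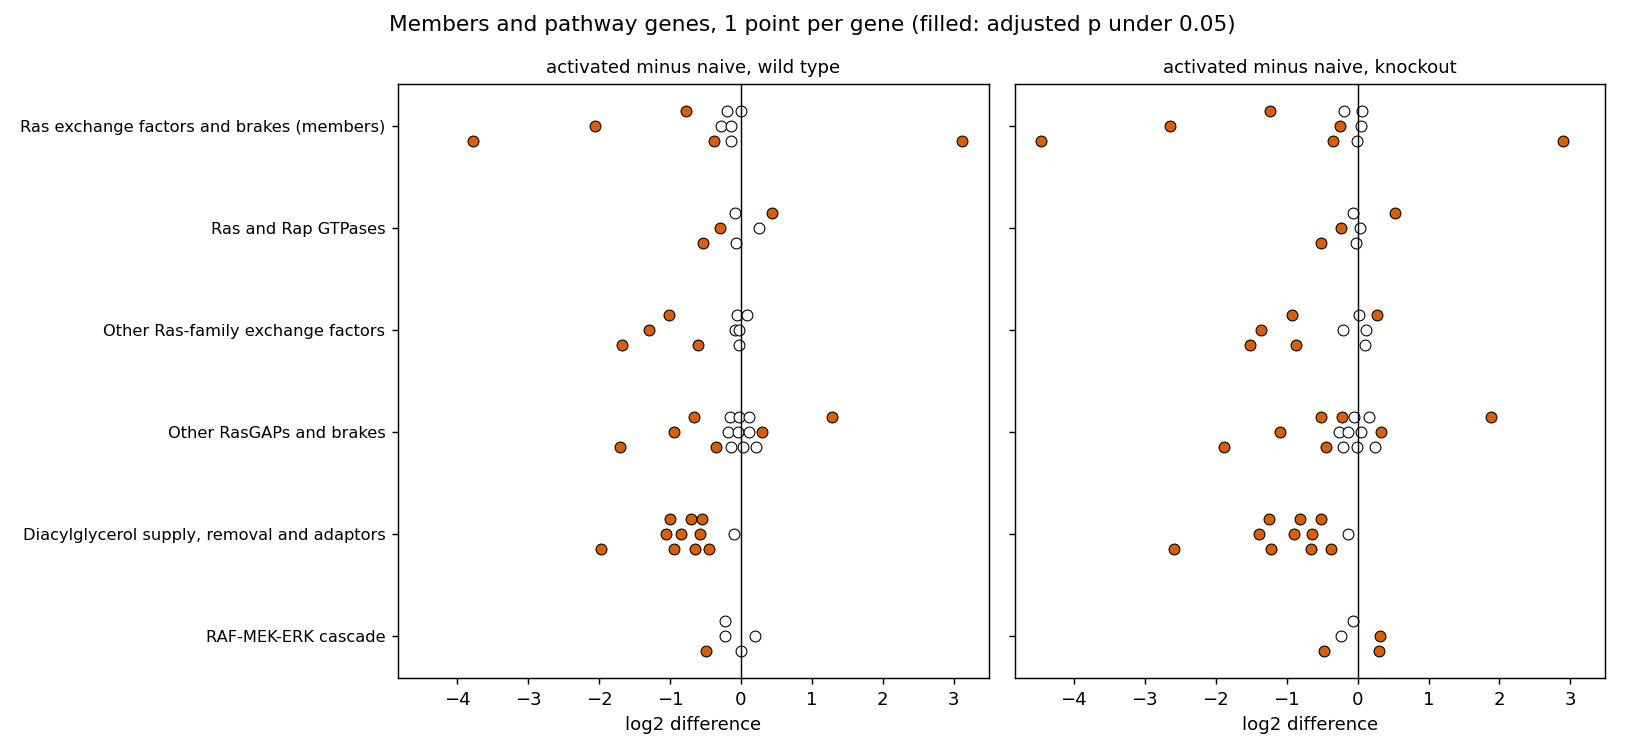
Activated minus naive difference in log2 of the 10 members (top row) and of the 46 other pathway genes in their 5 lists, in wild-type (left) and in knockout cells (right), 1 point per gene; filled points passed the threshold, open points did not. All but 1 of the 11 genes of the diacylglycerol list are filled points left of 0 in each genotype, whereas the GTPases and cascade genes lie within 1 log2 of 0.

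The genes most like the members in pattern were taken by the root mean square difference of centred log2 levels over the 11 arrays, for the 3 members of widest range. Nearest to Rasgrp2 were the histone gene H1f2 (0.295 log2), A530021J07Rik (0.306) and Dzip1 (0.319), where the median of all genes was 2.11. The activation difference of H1f2 was -3.75 in wild type and -4.39 in the knockout. Nearest to Spry1 were Egr2 (0.091), a transcription factor gene induced by T cell receptor signalling, Gramd1b (0.122) and Tnfrsf9 (0.145), which encodes the costimulatory receptor also called 4-1BB, with a median of 1.50. Nearest to Rasa3 were Dgka (0.068), Mgst2 (0.075) and Arhgef18 (0.080), with a median of 1.22. All of these genes were read on the same 11 arrays, along whose leading principal component 80.9% of the variance lay.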

How the data were processed

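RNA of splenic T cells (100 ng total RNA per sample) was hybridised to single-channel Affymetrix mouse arrays. Per the submitters' processing notes the authors used GCOS, RMA and Partek, with no version named. As deposited, the values are log2 levels of 45101 probe sets; they ran from 2.32 to 15.0, held 0 missing values and were used as they stood. Platform annotation gave 34958 probe sets 1 symbol, 932 several and 9211 none. All 11 arrays entered 1 limma fit of the 4 group means (limma 3.58.1, R 4.3.3; prior degrees of freedom 5.83, residual 7), with Benjamini-Hochberg adjustment over all 45101 probe sets in each of 6 comparisons. An adjusted p under 0.05 is called passing. The fit was tested on simulated data.

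The brightest probe set, that of highest mean over the arrays, stands for a gene. The members, lists and tests were chosen with earlier results of these data known. Named were all member probe sets, Crbn, and of each pathway list the passing genes of largest difference, at most 4, or the 1 gene of lowest p where 0 passed, plus the 3 genes most like each of the 3 members of widest range; Rgl1, Grb2, the Sprouty relatives and the marker genes were named after their values were seen. The labels call the arrays biological replicates, without saying whether equal numbers mean a shared animal, so p-values measure the spread between these samples. Of 53 listed pathway genes 46 were used, and the others were not analysed here. The alternatives were 1 probe set per gene, the mean of a gene's probe sets, a robust prior with a variance trend, a filter at the median level, array weights, quantile normalization again, centring on array medians, only the compared arrays, replicate number as a block, and each array left out. Promoters were taken from RefSeq on GRCm38.p6, and figures were drawn with matplotlib 3.10.9 in Python 3.11.15.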

Additional observations from a re-analysis of the deposited data

How the results depend on the processing

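Rasgrp1, Rasgrp2, Rasa3 and Spry1 were selected with their activation differences on these arrays known, so their passing under the alternatives supports nothing. No member value that passed changed sign. Over all member probe sets, comparisons and alternatives, 2549 values kept their side of the threshold and, if uncalled, stayed within the spread between replicates. Another 36 values stayed uncalled but moved by more than that spread. A further 34 values that had not passed did so with the same sign, and 9 that had passed did not. Counts over all probe sets moved more, and the cause was not tested except that 1 value per gene tests fewer features. With 1 probe set per gene and with the mean of a gene's probe sets, in that order, 7475 and 7438 passed in wild-type activation (15278 in the fit of all probe sets), 7851 and 7890 in knockout activation (16892), 27 and 23 between genotypes in naive cells (71), 11 and 12 in activated cells (32) and 19 and 21 on the mean of both states (98). Array weights gave 487 in naive cells, 11 in activated cells, 62 on the mean and 1 in the interaction (0), and with them 1 pathway gene, Spred1, passed as lower in knockout naive cells (-0.58, limma adjusted p = 0.0441). Only probe sets above the median level gave 45 in naive cells. A variance trend with a robust prior gave 1 in the interaction. Only the compared arrays gave 16 in naive and 6 in activated cells.

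With each array left out in turn, counts ran from 12838 to 15466 in wild-type and from 15382 to 17278 in knockout activation, from 23 (without wild-type naive replicate 2) to 518 (without wild-type naive replicate 3) in naive cells, from 2 (without wild-type activated replicate 1) to 39 in activated cells, from 37 (without wild-type activated replicate 1) to 96 on the mean and from 0 to 10 (without wild-type activated replicate 2 or wild-type naive replicate 3) in the interaction. The naive count also moved by over 1.5 times without knockout naive replicate 2 (29) or 3 (30), wild-type naive replicate 1 (28) or knockout activated replicate 1 (45) or 2 (40), the activated count without knockout activated replicate 3 (15) or wild-type activated replicate 2 (20), and the mean of both states without knockout activated replicate 2 (61) or 3 (61), knockout naive replicate 2 (59) or 3 (65), wild-type activated replicate 2 (59) or wild-type naive replicate 1 (59). Among member probe sets the genotype and interaction calls changed only for 1438932_at of Rasgrp2, without wild-type activated replicate 2.

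Arrays with the same number were not taken as paired, because the labels do not say whether they share an animal. Their deviations from group means correlated between -0.27 and 0.32, over 0.1 in 5 of 15 pairs, against 5 of 30 pairs of unlike number. Of 11 arrays 7 correlated best with one of their own number. The deviations of the 2 wild-type activated arrays mirror each other, so their correlations are not independent. These values do not settle whether the arrays were paired. The replicate block gave 383 in naive cells and 18 in the interaction, and passed 1450143_at of Rasgrp1 in wild-type activation (limma adjusted p = 0.0491).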
